A study of Mus musculus with 11 samples.

Results

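The minichromosome maintenance (MCM) genes were followed through male germ cell development in single cells of the adult mouse testis. All rows of the deposited UMI table whose symbol was Mcm2, Mcm3, Mcm4, Mcm5, Mcm6, Mcm7, Mcm8, Mcm9, Mcm10 or Mcmdc2 were taken, which gave 10 genes of 20389 rows. They were set in a replication group of 7 genes (Mcm2 to Mcm7 and Mcm10) and a group of 3 paralogues (Mcm8, Mcm9 and Mcmdc2). Live cells positive for a Dazl-GFP reporter, which marks germ cells, were sorted singly into plates from 3 mice kept under standard conditions without treatment, and their polyadenylated RNA was counted with unique molecular identifiers (UMIs, random tags that mark the original molecules). Mouse 1 gave 8 CEL-Seq1 libraries, mouse 2 gave 1 CEL-Seq2 library and mouse 3 gave 2 CEL-Seq2 libraries, of which 1 was sorted by a gate and not by index sorting. The mouse was the replicate (n = 3), and the protocol cannot be told apart from the mouse for mouse 1. Strain and age beyond adult are not given in the sources used here.

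Mcm2 to Mcm7 encode the subunits of the ring-shaped helicase that is loaded on replication origins and unwinds DNA in S phase. Mcm10 encodes a factor that helps to activate that helicase. Mcm8 and Mcm9 encode a second helicase that acts in homologous recombination, and Mcmdc2 encodes a divergent family member needed for meiotic recombination in mice. In the mouse annotation (GRCm38) the ring genes lie apart, Mcm2 at chr6:88883474-88898780, Mcm4 at chr16:15623897-15637400, Mcm5 at chr8:75109569-75128439 and Mcm7 at chr5:138164583-138172422, with Mcm8 at chr2:132816141-132844197 and Mcmdc2 at chr1:9908638-9942085. Germ cells replicate their DNA in spermatogonial divisions and a last time in preleptotene, and recombine in the prophase that follows.

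Of 1920 wells, 1448 held at least 1000 UMIs, and 1222 cells fell into 12 ordered stages. Stage 1 was undifferentiated spermatogonia-like, stages 2 and 3 differentiating spermatogonia-like, stage 4 preleptotene-like, stages 5 to 8 leptotene and zygotene-like, and stages 9 to 12 pachytene-like. These names were rebuilt from marker genes, and a difference from the study may come from that. In stages 3 and 6 to 12 none of the 10 leading genes was a listed marker of the stage's name, and a Sertoli-type gene, Clu, was among the leading genes of stage 4. Of 4 listed macrophage markers, only 2 (Cd74, Lyz2) had a row, and both were at 0 at stage 1. All 3 endothelial and all 3 peritubular markers were detected there. They summed to 6.17 to 12.8 and 3.08 to 12.8 per 1000000 autosomal UMIs in the 3 mice. Of 5 Leydig markers 4 were at 0 at stage 1, and their sum ranged from 0 to 15.3. Stage 1 was chosen as the cluster with the highest mean of undifferentiated spermatogonia markers, so their high level there was set in advance. Summed, they ranged from 1164 to 1592 per 1000000 UMIs in the 3 mice at stage 1 and from 13.7 to 21.3 at stage 12. Summed pachytene markers ranged from 431 to 1408 and from 7104 to 13935. Markers of differentiating spermatogonia summed to 2189 to 3467 at stage 1, which overlaps 2704 to 4314 at stage 2 and 1554 to 2468 at stage 3. Markers of Sertoli cells, the somatic neighbours of germ cells, were all 6 in the table and summed to 67.9 to 111 at stage 1, 124 to 384 at stage 4 and 1.25 to 8.28 at stage 12. Without cells that held a UMI of such a marker, stage 1 kept 13 cells of 1 mouse, which also lowers the power of a test. The rises described below were then not called for Mcm2 and Mcm4 at stage 2 (log2 fold changes 0.66 and 0.21), for Mcm6, Mcm8 and Mcmdc2 at stage 5 (0.09, 0.98 and 0.63) and for Mcmdc2 at stage 8 (0.68). The rise of Mcm5 (1.38) and the fall of Mcm7 (-1.55) at stage 5 were still called. Autosomal UMIs per mouse and stage ranged from 153078 to 3846439. Levels below are counts per 1000000 autosomal UMIs (CPM). These are shares of a cell's RNA, so they cannot tell fewer copies per cell from more RNA of other genes.

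Of the 10 genes, 8 have an entry in the RefSeq promoter table (GRCm38.p6, a window around each start), and these windows were searched because several of the genes move together. The E2F-type letters searched on both strands were TTGGCGC (in 2.45% of all windows), TTCCCGC (in 4.6%), TTCGCGC (in 1.59%) and TTGCCGC (in 1.81%), and their matches can overlap one another and those of the other motif searched, CCAAT. E2F factors are known regulators of S-phase genes. An E2F-type match was present for Mcm3, Mcm5, Mcm6, Mcm7 and Mcm8 and not in the windows of Mcm2, Mcm9 and Mcm10, while 9.57% of all 32851 promoter windows hold one. CCAAT was present in the windows of all 8 genes, against 37.4% of all windows. The sequences below show 30 bases around a match for genes with the contrasting profiles described later, 5′ to 3′ on the strand of the gene, with the match in capitals.
Mcm5, chr8:75109345-75109374, plus strand: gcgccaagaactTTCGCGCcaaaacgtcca
Mcm6, chr1:128359797-128359826, minus strand: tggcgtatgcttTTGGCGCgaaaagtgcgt
Mcm7, chr5:138172031-138172060, minus strand: taatttcgaaccGCGGGAAacagggtgtcc
Mcm8, chr2:132816161-132816190, plus strand: gcagaagcgcgtcatagacGCGCCAAaaaa
In GCGGGAA and GCGCCAA the letters searched lie on the opposite strand. A match describes the letters in the window only.

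Each gene was measured from stage to stage (edgeR quasi-likelihood test on sums per mouse and stage, with the mouse as a block and Benjamini-Hochberg adjustment over all 11266 genes tested). Mcm9 was too low to be tested, so 9 of the 10 genes were. All 9 changed over the 12 stages, but so did 95.7% of all genes tested. The plot of levels by stage shows that the replication genes did not follow 1 common course.

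**Figure D1:**
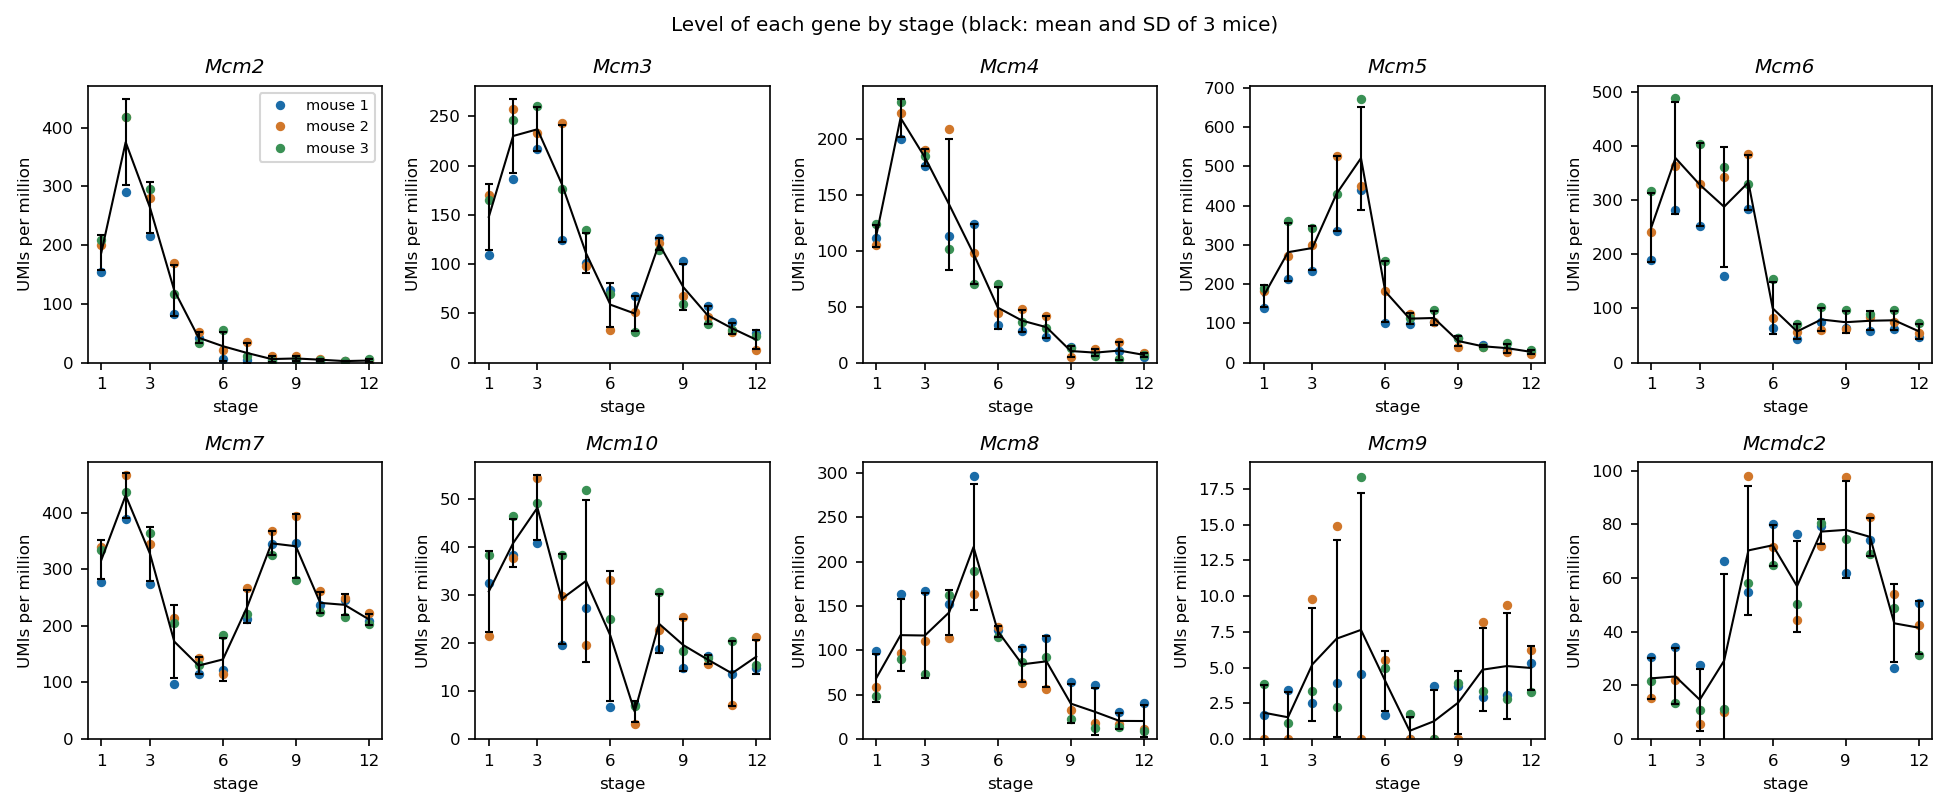
Level of each of the 10 genes (CPM, linear axes from 0) by stage, with 1 point per mouse and the mean and SD of 3 mice in black. Mcm2 and Mcm4 fall to a few CPM, Mcm5 and Mcm8 are highest at stage 5, Mcm7 dips at stage 5 and returns, and Mcmdc2 is higher from stage 5.

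At stage 2, 7 of the 9 genes were higher than at stage 1, against 14.4% of all genes tested. They were Mcm2 to Mcm7 and Mcm8. Mcm2, a subunit of the helicase ring, was at 154, 201 and 208 CPM in mice 1, 2 and 3 at stage 1 and 291, 418 and 417 at stage 2. Every mouse was higher at stage 2 than any mouse at stage 1, with a log2 fold change of 1.06 ± 0.19 (SE, adjusted p = 2.23e-05, edgeR). Mcm4, another ring subunit, was at 111, 105 and 124 CPM at stage 1 and at 200, 223 and 233 at stage 2. Its groups did not overlap either, and it rose by 0.99 ± 0.20 on the log2 scale (adjusted p = 1.48e-04, edgeR). Without the mouse as a block neither rise was called (adjusted p = 0.185 for Mcm2 and 0.0722 for Mcm4), nor in the table of reads (adjusted p = 0.0847 and 0.0976). Mcm10 was at 30.8 ± 8.48 CPM (SD, n = 3) at stage 1 and 40.9 ± 4.95 at stage 2, which did not pass the test, and Mcmdc2 was at 22.6 ± 7.71 and 23.3 ± 10.4.

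From stage 4, the preleptotene-like stage, the subunits of the ring parted. There, Mcm5 was higher than at stage 1 by 1.32 on the log2 scale and Mcm8 by 1.20 (adjusted p = 6.62e-09 and 0.00181, edgeR). Mcm2 and Mcm7 changed by -0.69 and -0.88 (adjusted p = 0.0159 and 1.55e-05, edgeR), and the other tested members were not called. Per 100 ERCC UMIs the means of Mcm5 and Mcm8 were 1.24 and 0.67 at stage 1 and 1.05 and 0.38 at stage 4. At stage 5, the first leptotene and zygotene-like stage, Mcm5, Mcm6, Mcm8 and Mcmdc2 were higher than at stage 1, against 22.3% of all genes tested that were higher, and Mcm2 and Mcm7 were lower, against 30.3% that were lower. Mcm5 was at 138, 182 and 190 CPM in the 3 mice at stage 1 and at 439, 451 and 672 at stage 5. The stages did not overlap, and the log2 fold change was 1.65 ± 0.17 (adjusted p = 8.04e-12, edgeR). Mcm7 went the other way, from 277, 339 and 333 CPM at stage 1 to 114, 144 and 131 at stage 5. The change was -1.27 ± 0.18 (adjusted p = 5.11e-08, edgeR), without overlap between the stages. Mcm2 was at 41.2, 52.3 and 33.6 CPM at stage 5, and fell by 2.20 ± 0.32 (adjusted p = 8.49e-08, edgeR). Mcm6 was at 190, 241 and 317 CPM at stage 1 and at 284, 385 and 330 at stage 5, which overlap. Its rise of 0.43 ± 0.16 (adjusted p = 0.0245, edgeR) was not called without mouse 1 or without mouse 2 (adjusted p = 0.190 and 0.133), nor with RLE size factors (adjusted p = 0.0638) or without the mouse as a block (adjusted p = 0.281). With ERCC spike-in RNA in place of autosomal UMIs as the scale, the stage 5 values of Mcm5, Mcm6, Mcm8 and Mcmdc2 were negative, at -0.18, -1.38, -0.09 and -0.22, while that of Mcm7 kept its direction. Of those negative values only that of Mcm6 was called (adjusted p = 8.91e-07, edgeR). For Mcm5, Mcm8 and Mcmdc2 no change was called on that scale (adjusted p = 0.530, 0.791 and 0.719, edgeR).

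Between stages 5 and 6, 4 of the 9 genes fell (Mcm4, Mcm5, Mcm6 and Mcm8), against 9.03% of all genes tested that fell. Mcm5 dropped by 1.71 on the log2 scale (SE 0.19, adjusted p = 4.59e-10, edgeR), from 439, 451 and 672 CPM to 102, 182 and 260. Mcm6 dropped by 1.84 (SE 0.20, adjusted p = 2.67e-10, edgeR), from 284, 385 and 330 CPM to 63.4, 82.7 and 155. The ranges of the mice did not overlap for either gene. At stage 7 all 7 replication genes were below stage 1, against 33.4% of all genes tested that were lower, and Mcm8 was at 103, 63.6 and 86.5 CPM (0.45, adjusted p = 0.229, edgeR) and Mcmdc2 was higher than at stage 1 (1.38 ± 0.46, adjusted p = 0.0107, edgeR).

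Some replication genes returned at stages 7 and 8. Mcm7 was at 122, 116 and 185 CPM at stage 6 and at 213, 267 and 221 at stage 7. That step was 0.85 ± 0.18 on the log2 scale (adjusted p = 6.69e-04, edgeR), and the next, to stage 8, was 0.57 (adjusted p = 0.00432, edgeR). Mcm3, Mcm7 and Mcm10 were higher at stage 8 than at stage 7, against 9.4% of all genes tested. Mcm3, a ring subunit, was at 67.4, 50.9 and 31.1 CPM at stage 7 and at 126, 121 and 114 at stage 8, a rise of 1.28 ± 0.28 on the log2 scale (adjusted p = 6.13e-04, edgeR). Mcm10 rose from 7.09, 3.18 and 6.92 CPM to 18.7, 22.7 and 30.8, but on 9 and 47 UMIs in all, with an adjusted p of 0.00305 (edgeR). Mcm2 did not return, at 3.74, 11.4 and 2.93 CPM at stage 8. At stage 9, Mcm3, Mcm4, Mcm5 and Mcm8 changed by -0.69, -1.27, -1.04 and -1.28 on the log2 scale, against 7.57% of all genes tested that fell from stage 8. Steps between neighbouring stages were not tested on the scale of ERCC spike-in RNA. Per 100 ERCC UMIs, Mcm3 was at 1.05 ± 0.95 (SD, n = 3) at stage 8 and 1.16 ± 1.06 at stage 9, while the means of Mcm4, Mcm5 and Mcm8 fell. Between stages 7 and 8, Mcm5 went from 0.44 ± 0.37 to 0.92 ± 0.73 and Mcm6 from 0.21 ± 0.16 to 0.66 ± 0.55.

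**Figure D2:**
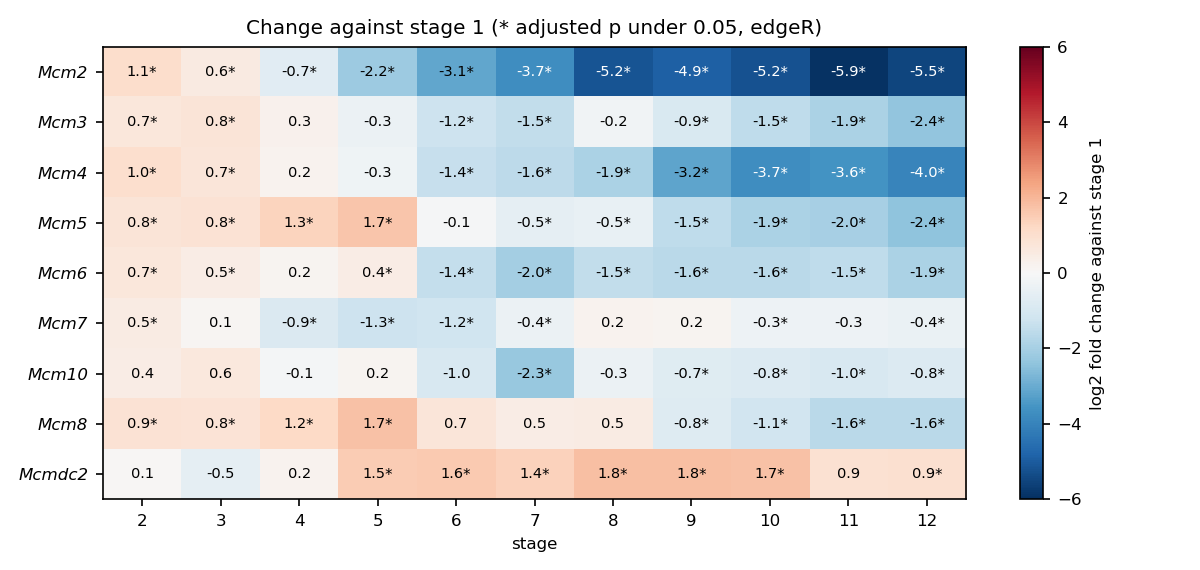
Log2 fold change of each tested gene against stage 1 (colour and number) at stages 2 to 12, with an asterisk where the adjusted p of the edgeR test is under 0.05. Mcm2 reaches -5.5 at stage 12, Mcm7 is lowest at stage 5 with -1.3, and Mcmdc2 is positive from stage 4 on.

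Between the earliest and the latest stage, 8 of the 9 genes were called lower, against 42% of all genes tested, and 1 was called higher (Mcmdc2), against 31.9%. Mcm2 was at 0.892, 3.75 and 5.79 CPM at stage 12, a log2 change of -5.50 ± 0.29 (adjusted p = 2.68e-22, edgeR). Mcm4 was at 5.35, 8.75 and 6.62 CPM and fell by 3.96 ± 0.28 (adjusted p = 1.06e-18, edgeR). Both were lower in 3 of 3 mice and far outside the range of stage 1. Mcm5, Mcm3 and Mcm6 changed by -2.40, -2.35 and -1.91, also in 3 of 3 mice. On the ERCC scale the falls were smaller, with -3.89 for Mcm2, -2.30 for Mcm4, -0.80 for Mcm5 and -0.75 for Mcm3, and all 4 were called. Mcm6 kept a level of 47.0, 53.8 and 73.1 CPM at stage 12, and on the ERCC scale its change of -0.30 did not pass the test (adjusted p = 0.247, edgeR).

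Mcm7 was at 208, 223 and 204 CPM at stage 12, below its 277, 339 and 333 at stage 1. Its fall of 0.41 ± 0.14 passed the test (adjusted p = 0.00893, edgeR), was lost in 11 of 19 alternatives and turned in 1. Leaving out mouse 1, mouse 2 or mouse 3 ended the call (adjusted p = 0.183, 0.192 and 0.0933), and with ERCC scaling the gene was higher by 1.18. The call was also lost (-0.27, adjusted p = 0.0700) when 1 further gene was left out of the genes used to make the stages. Mcm10 fell by 0.81 ± 0.31 (adjusted p = 0.0169, edgeR), with a log2 ratio of -0.02 in mouse 2, lost its call without mouse 1 or without mouse 3 (adjusted p = 0.282 and 0.240), and was higher by 0.88 with ERCC scaling. The ERCC scale moved the median of all genes from -0.25 to 1.37, and UMIs per ERCC UMI rose from 82.2 ± 67.2 (SD, n = 3) at stage 1 to 254 ± 188 at stage 12.

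The make-up of the ring transcripts changed with these courses. Mcm7 made up 28.3%, 27.4% and 24.9% of the Mcm2 to Mcm7 UMIs in mice 1, 2 and 3 at stage 1. It made up 10.4%, 11.7% and 9.58% at stage 5 and 65.3%, 68.7% and 58.5% at stage 12. The 3 mice lay close together at each of these stages and the stages did not overlap. Mcm5 had the highest share at stage 5, at 41.8% ± 6.39 (SD, n = 3), against 14.4% ± 0.309 at stage 1 and 8.24% ± 1.16 at stage 12. The share of Mcm2 was 15.8% ± 0.337 at stage 1 and 1.03% ± 0.701 at stage 12. These shares do not depend on the scale of a library. They are shares of 3′-end UMIs and do not give the ratio of the proteins.

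**Figure D3:**
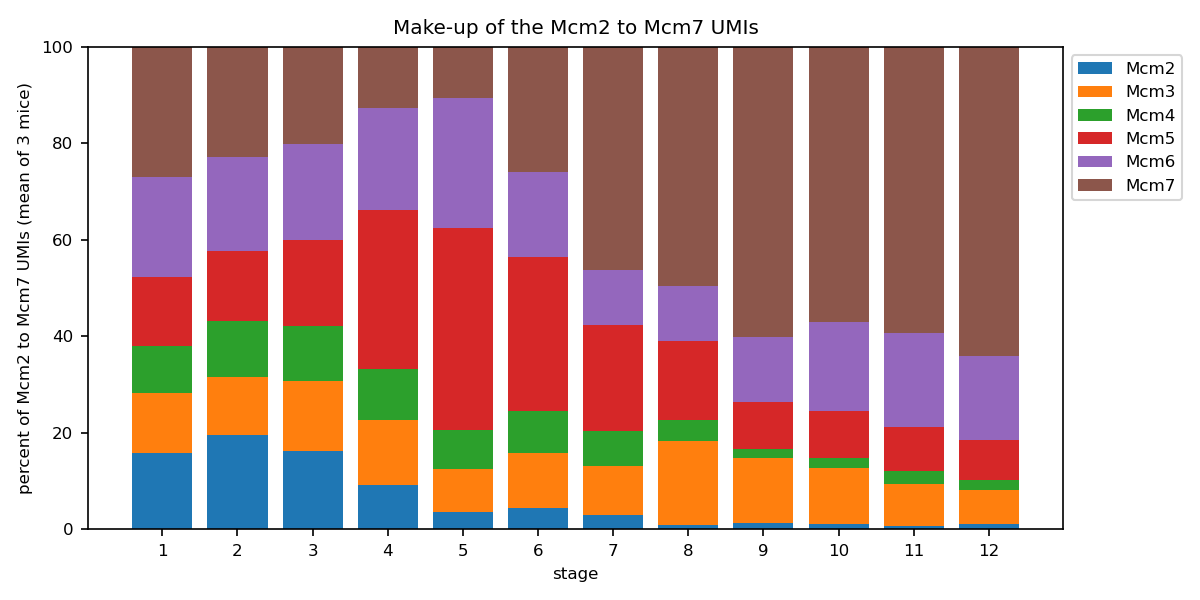
Share of each subunit gene in the Mcm2 to Mcm7 UMIs by stage (stacked bars, percent, mean of 3 mice). The Mcm7 part shrinks to 10.5% at stage 5 and is 64.2% at stage 12.

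The 3′ end of Mcm7 overlaps Cops6, a gene of the COP9 signalosome on the opposite strand, and the mouse annotation also places Mir25 and Mir93 in its last kilobase. Whether the counting used strand is not given in the sources used here, so reads of the 2 genes may not have been kept apart. Cops6 ranged from 164 to 276 CPM in the 3 mice at stage 1, from 45.7 to 67.2 at stage 5 and from 173 to 214 at stage 12. Like Mcm7 it was lower at stage 5 (log2 fold change -1.79 ± 0.23, adjusted p = 5.01e-09, edgeR), and at stage 12 its change was 0.05 (adjusted p = 0.938). The part of Cops6 reads in the Mcm7 counts was not tested. Mcmdc2 likewise overlaps Snhg6, a noncoding RNA host gene, which fell by 1.85 between stages 1 and 12 while Mcmdc2 rose.

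**Figure D4:**
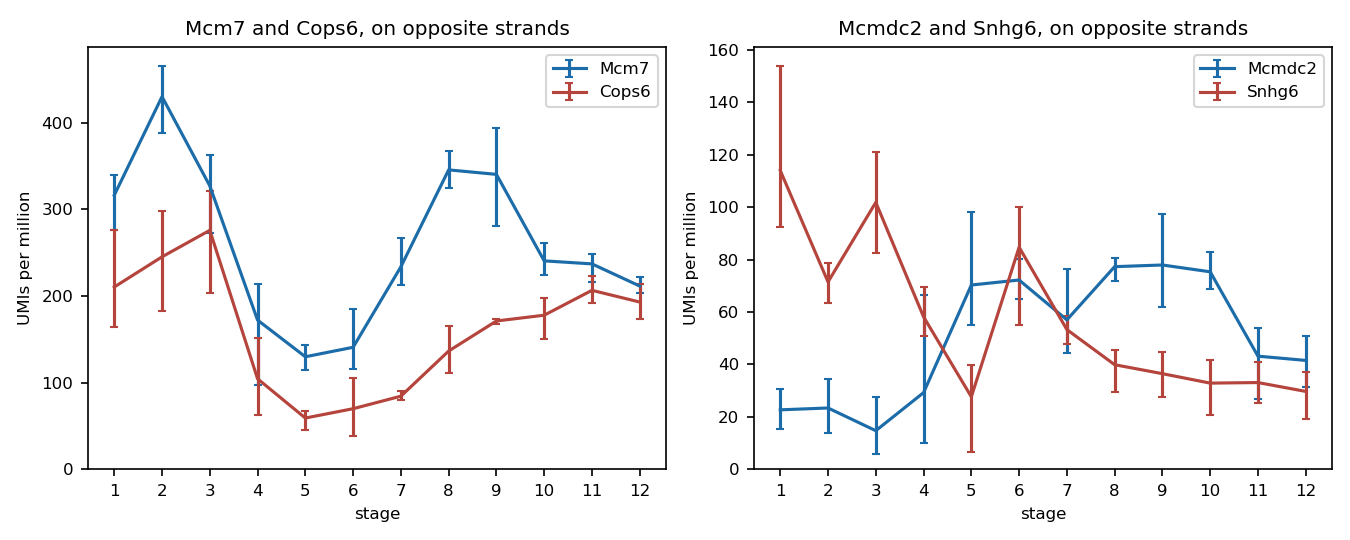
Mean level of Mcm7 with Cops6 and of Mcmdc2 with Snhg6 by stage (CPM, bars from the lowest to the highest of 3 mice). Mcm7 and Cops6 are both lowest at stage 5, and Mcmdc2 is higher and Snhg6 lower at stage 12 than at stage 1.

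Among the paralogues, Mcm8 was highest in CPM at stage 5, as Mcm5 was, while Mcmdc2 stayed up to stage 10. The step from stage 4 to stage 5 was not called for Mcm8 or Mcm5 (adjusted p = 0.269 and 0.205, edgeR). Per 100 ERCC UMIs the means of both were highest at stage 2, at 1.10 ± 1.26 (SD, n = 3) for Mcm8 and 1.94 ± 1.18 for Mcm5. At stage 5 they were 0.52 ± 0.52 and 1.02 ± 0.56. In the 3 mice Mcm8 had 99.1, 58.6 and 48.5 CPM in stage 1, then 297, 163 and 189 in stage 5, and 41.0, 11.3 and 8.83 in stage 12. In CPM stage 5 was above stage 1 in 3 of 3 mice (log2 fold change 1.74 ± 0.31, adjusted p = 1.40e-05, edgeR). On the ERCC scale that change was -0.09 and was not called (adjusted p = 0.791, edgeR). The fall from stage 1 to stage 12 was 1.62 ± 0.32 (adjusted p = 2.36e-05, edgeR) and was -0.04 on the ERCC scale. Mouse 1 was the highest mouse at stages 1, 5 and 12.

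Mcmdc2 was low in spermatogonia, at 30.8, 15.4 and 21.7 CPM at stage 1, and at 54.9, 98.0 and 58.0 at stage 5. The rise of 1.53 ± 0.52 at stage 5 passed the test (adjusted p = 0.0137, edgeR) and was not called without mouse 2 or without mouse 3 (adjusted p = 0.160 and 0.152), nor without the gate-sorted library (adjusted p = 0.0553). At stage 8 it was at 79.4, 71.9 and 80.6 CPM, with no overlap with stage 1 and a log2 fold change of 1.80 ± 0.43 (adjusted p = 4.94e-04, edgeR), which was not called without mouse 3 (1.63, adjusted p = 0.0537) or without cells with a Sertoli marker UMI (0.68, adjusted p = 0.484). At stage 12 it was at 50.8, 42.5 and 31.2 CPM. The lower level is one of CPM only. Per 100 ERCC UMIs Mcmdc2 was at 0.67 ± 0.59 (SD, n = 3) at stage 8 and at 1.15 ± 1.07 at stage 12. In CPM its step from stage 10 to stage 11 was -0.84 and was not called (adjusted p = 0.486, edgeR). The rise of 0.94 ± 0.42 from stage 1 to stage 12 (adjusted p = 0.0418, edgeR) was seen in 3 of 3 mice. It was lost without mouse 2 or without mouse 3 (adjusted p = 0.137 and 0.168). The size of this rise moved with the settings, from 0.27 at a Leiden resolution of 0.6 (adjusted p = 0.681, edgeR) to 2.60 on the ERCC scale (adjusted p = 4.07e-06, edgeR). Stages made from even-numbered autosomes gave 1.58 (adjusted p = 6.99e-06, edgeR), and no alignment across mice gave 2.26 (adjusted p = 2.49e-12, edgeR). Where stages were remade, the earliest and latest need not hold the cells of stages 1 and 12. There were 8 stages of 752 cells without alignment, 13 of 1209 with even-numbered autosomes and 10 of 1219 at the lower resolution.

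Mcm9 had 144 UMIs in all wells, of which 142 lay in the 12 stages. Its mean level was highest at stage 5 with 7.63 ± 9.54 CPM (SD, n = 3) on 7 UMIs, and 1.85 ± 1.92 at stage 1 on 4 UMIs. Mouse 2 had no Mcm9 UMI at stages 1, 2, 5, 7, 8 and 9. Differences between stages were not tested for Mcm9, which did not pass the filter on low counts. A Mcm9 UMI was found in 5.79% ± 5.57 of cells (SD, n = 3) at stage 1 and in 30.1% ± 7.48 at stage 12 without thinning, where late cells are deeper. Thinned to 2000 UMIs, the shares were 1.23% ± 2.14 and 0 of 73 cells, which allows a share of up to 4.11%.

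Summed over the groups, the replication genes were at 1012, 1259 and 1375 CPM at stage 1 and at 334, 345 and 363 at stage 12. The paralogues had 132, 74.0 and 74.1 CPM at first, then had 357, 261 and 266 in stage 5, and ended with 97.2, 60.0 and 43.3 in stage 12. The log2 ratio of paralogues to replication genes was -3.75 ± 0.70 (SD, n = 3) at stage 1, -1.49 ± 0.60 at stage 6 and -2.46 ± 0.65 at stage 12. It rose from stage 1 to stage 12 in each mouse, by 1.29 ± 0.24. Because Mcm8 fell and Mcmdc2 rose, the sum of the paralogues hides opposite courses.

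**Figure D5:**
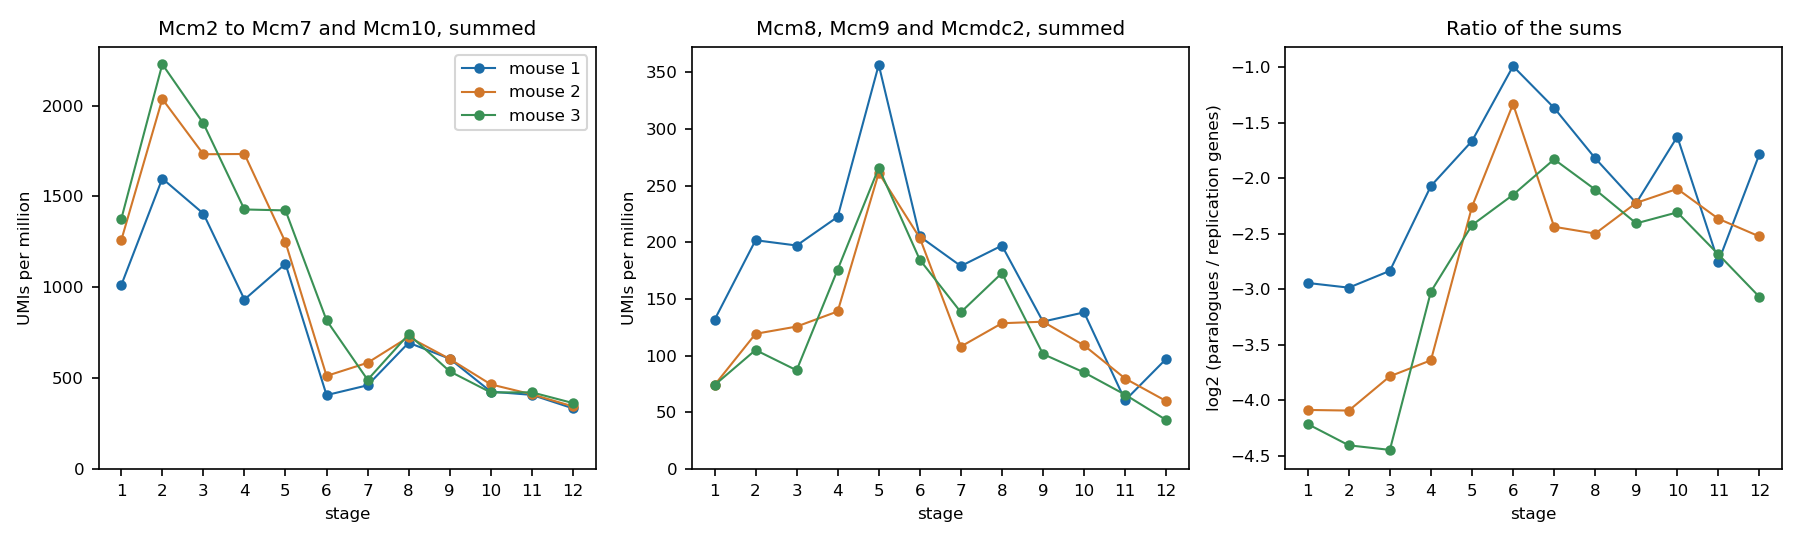
Summed level of the 7 replication genes, summed level of the 3 paralogues (CPM) and the log2 ratio of the sums by stage, 1 line per mouse. The replication sum is highest at stage 2, the paralogue sum at stage 5, and the ratio is lowest in the first 3 stages.

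Cells were thinned to 2000 UMIs to compare the share of cells with a UMI. A UMI of Mcm2 was found in 36.3% ± 24.5 of cells (SD, n = 3) at stage 1, 51.9% ± 7.22 at stage 2 and 1.08% ± 1.86 at stage 12. For Mcm7 the shares were 46.1% ± 3.43 at stage 1 and 37.3% ± 13.4 at stage 12, with 17.2%, 26.9% and 18.8% in the 3 mice at stage 5. For Mcmdc2 they were 6.64% ± 6.29, 17.9% ± 8.79 and 9.37% ± 3.56. Without thinning, Mcm2 was found in 91.3% of cells at stage 1 and 22.7% at stage 12, Mcmdc2 in 38.0% and 86.1%, and Mcm7 in 96.7% of cells at stage 1 and in 100% at stage 12, and late cells are deeper.

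Other genes of the replication pathway were described beside the MCM genes. Their counts stand against all genes tested. Of these, 22.3% were higher and 30.3% lower at stage 5 than at stage 1, and 31.9% higher and 42% lower at stage 12. Counts and medians of the lists, those of fork, nucleotide supply and recombination genes included, were not made on the ERCC scale. Mean UMIs per ERCC UMI were 82.2 at stage 1 and 21.7 at stage 5. On that scale the stage 5 values of Mcm5, Mcm6, Mcm8 and Mcmdc2 were negative, and of these only that of Mcm6 was called. Whether the rises of the lists at stage 5 hold there was not tested. Of 11 licensing genes, which encode origin recognition and loading factors and regulators such as the Cdt1 inhibitor Gmnn, 4 were higher and 5 lower at stage 12, near the shares of all genes, with a median log2 fold change of 0.12 against -0.25 for all genes tested. Cdt1, which brings the ring to origins, fell by 4.76 and was at 5.09 CPM at stage 5, when Mcm5 was highest in CPM. Orc1, an origin recognition subunit, fell by 3.82, while Lrwd1 rose by 1.15 and Orc3 by 1.02. Of 12 helicase activation genes, 10 were higher and 1 lower at stage 5, with a median of 1.47 against -0.14 for all genes tested. At stage 12, 5 were higher and 3 lower, with a median of 0.23, from Donson at 2.21 and Gins1 at 1.56 to Gins4 at -0.55 and Recql4 at -5.74.

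Of 26 genes that act at the replication fork, not all of which copy DNA themselves, 5 were higher and 15 lower at stage 12. The shares over all genes were 31.9% and 42%, and the median was -1.16 against -0.25 for all genes tested. Pola1, a polymerase subunit gene on the X chromosome, fell by 6.97. Fen1, a flap nuclease, changed by -5.03, while Chaf1a rose by 2.04 and Rfc2 by 1.67. Of 6 nucleotide supply genes, 1 was higher (Dut, 0.90) and 4 were lower, among them Tk1, a thymidine kinase, at -5.51. The median of these few genes was -1.16 at stage 12. Of 23 tested recombination genes, 15 were higher and 1 lower at stage 5, with a median of 1.30, against 22.3% and 30.3% of all genes. At stage 12, 9 were higher and 7 lower, with a median of 0.25, against 31.9% and 42% of all genes. Cntd1 rose by 4.77 and Psmc3ip by 3.32 between stages 1 and 12, while Tex15 was at -4.30 and Mnd1 at -2.44. These values compare the end stages only. At stage 5 Tex15 was higher than at stage 1 (1.89, adjusted p = 8.32e-07, edgeR). Mnd1 was lower at stage 5 (-1.32, adjusted p = 0.0245, edgeR) and was among the leading genes of stage 8.

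Likeness of course was measured as Pearson's r of log2(level + 10), centred within each mouse, over 36 sums of a mouse and a stage, among 7925 genes with a mean of at least 20 CPM. The points share mice and depth, so r is a description. The 5 genes most like summed Mcm2 to Mcm7 were Hmgb1, Clspn, Hmgn2, Ptma and Dctpp1, with r from 0.94 to 0.96. For Mcm8 they were Lsm14a, Tcea1, Cycs, Ctnnbip1 and Fbxw2 (r 0.94 each), for Mcmdc2 Thbs3, Zfp113, Ttc26, Arhgap33 and Mtif2 (r 0.81 to 0.87), and for the thinly counted Mcm9 Tbccd1, Idi1, Clk1, 4922501C03Rik and Ttc39b (r 0.62 to 0.74). Among the members, r was 0.93 between Mcm2 and Mcm4 and between Mcm5 and Mcm8, 0.26 between Mcm2 and Mcm7, and -0.73 between Mcm2 and Mcmdc2.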

How the data were processed

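The authors deposited UMI counts, read counts and a table of transcripts (estimated counts, rounded here for an alternative) per gene and well. BWA 0.7.10 and mm10 are named in the submitters' processing notes. Strand use in counting is not given in the sources used here. Wells with at least 1000 UMIs were kept, and 5 cells with at least 1% of spermatid-marker UMIs were left out. Stages were made from 1500 variable genes of odd-numbered autosomes (Seurat 5.3.0, scanpy 1.11.5, Leiden resolution 1.0, diffusion pseudotime). The 10 MCM genes and the genes of the replication and recombination lists took no part in this. Other genes named here, such as stage markers, Cops6 and Snhg6, were not left out by that rule. The spermatid rule was set after clusters were seen, and 3 clusters of low depth were left out. Scrublet called 14 doublets, which were kept. UMIs were summed per mouse and stage (36 sums) and tested with edgeR 4.0.16 (TMM, filterByExpr, mouse as block, adjusted p under 0.05); the fit was tested on simulated data. The block is the animal. All 10 genes are named, with the 2 largest rises and falls of each list and the 5 genes of most like course. For 1 gene that this rule names, the result is not reported here. In a first run, 1 listed gene had been matched to a wrong symbol; this was corrected, which moved the stage borders, and the first set of staging genes is given as an alternative. Members and lists were chosen with earlier results of these data known. Alternatives covered scaling, filters, DESeq2 1.42.0, values, cells, libraries, staging and each mouse left out.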

Additional observations from a re-analysis of the deposited data

Results flagged for a closer look

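UMIs of the MCM genes were also present in wells that entered no comparison, above the level of 3 UMIs that a count of 0 allows. In 472 wells under 1000 UMIs the replication genes were at 696 and the paralogues at 124 CPM (UMIs per 1000000 autosomal UMIs). In 3 low-depth clusters they were at 1191 and 212 (led by Lrrc17, 68 cells), 580 and 114 (led by Plekhg3, 88 cells) and 280.0 and 158 (led by Vmn2r55, 65 cells). In the 5 wells with spermatid markers they were at 572 and 106. These rest on 8 to 244 UMIs each. Groups of 3 mice are too small for a test of outlying samples.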

How the results depend on the processing

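Mcm2, Mcm3, Mcm4 and Mcm5 kept direction and call between the latest and the earliest stage under all 19 alternatives, with smaller falls on the ERCC scale (-3.89, -0.75, -2.30 and -0.80). Mcm6 and Mcm8 kept theirs under 18 and were not called on the ERCC scale (-0.30 and -0.037). Mcm7 and Mcm10 were reversed on the ERCC scale (1.18 and 0.88). On that scale 6966 genes were higher and 2170 lower, against 3595 and 4727.

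Mcm7 lost its call under 11 alternatives: no filter (-0.32), the reads table (-0.33), no alignment (-0.21), even-numbered autosomes (-0.29), Leiden resolution 0.6 (-0.14), without the gate-sorted library (-0.31), with 1 further gene left out of staging (-0.27), no replicate block (-0.41, adjusted p = 0.0556, edgeR) and each mouse left out (-0.33 to -0.23). Mcm10 lost its call with no filter (-0.72), the reads table (-0.28), no alignment (-0.54), without the gate-sorted library (-0.74), without the block (-0.71, adjusted p = 0.121) and without mouse 1 or mouse 3 (-0.93 to -0.46 over the mice left out). Mcmdc2 lost its call with RLE size factors (0.86), DESeq2 (0.94), the transcripts table (1.01), at least 20 cells per sum (0.86), at least 3000 UMIs (0.94), Leiden resolution 0.6 (0.27), without the gate-sorted library (0.97), without the block (1.01, adjusted p = 0.0884) and without mouse 2 or mouse 3 (0.91 to 1.26 over the mice left out). The cause was not tested.

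Without thinning, shares of cells with a UMI at stages 1 and 12 were 91.3% and 22.7% for Mcm2, 96.7% and 100% for Mcm7 and 38.0% and 86.1% for Mcmdc2. At stage 5 the ERCC scale turned the sign of Mcm5 (-0.18), Mcm6 (-1.38), Mcm8 (-0.092) and Mcmdc2 (-0.22). Only Mcm6 was called lower there, and for Mcm5, Mcm8 and Mcmdc2 no change was called (adjusted p = 0.530, 0.791 and 0.719, edgeR). Leaving out cells with a Sertoli marker UMI left 13 cells of 1 mouse at stage 1, and the rises of Mcm2 and Mcm4 at stage 2, of Mcm6 and Mcm8 at stage 5 and of Mcmdc2 at stages 5 and 8 were then not called. Some settings were chosen after seeing the data. They were those without the gate-sorted library, with 1 further staging gene left out, with spermatid-marker cells kept and without Sertoli-marker cells. All alternatives at stages 2, 5 and 8 were also chosen then.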
